A study of Canis lupus familiaris with 6 samples.

Results

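Collagen chain genes were compared between MDCKII cells grown flat and MDCKII cells forming cysts. MDCKII is a line of dog kidney epithelial cells that polarizes in culture. The members are the probe sets, the groups of array probes that report 1 transcript, whose single gene symbol in the platform annotation has the form of a collagen chain name. There were 97 such probe sets, for 36 genes, among 42924 probe sets that were not controls. RNA was taken 36 h after plating from a confluent monolayer on plastic (2D, 3 arrays) or from cells seeded on a thin coat of Matrigel, 100 µl in a 60 mm dish, with 2% Matrigel added to the medium (3D, 3 arrays). Both groups are the same line with no added gene or drug, and each replicate is labelled biological. No label says whether the replicates came from separate thaws or passages. In such bulk RNA, fewer cells of a type and less RNA per cell cannot be told apart.

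The deposited log2 values lay on different scales. Arrays of replicates 2 and 3 had medians of 7.06 to 7.08 and no value below 0, whereas the replicate 1 arrays had medians of 5.42 (2D) and 5.26 (3D) with 246 and 413 values below 0. The 3D minus 2D difference was therefore tested on replicates 2 and 3 (n = 2 arrays per group, limma across all probe sets with Benjamini-Hochberg adjustment, threshold 0.05), and the replicate 1 pair gives a separate difference without a test. The spread of these replicate 1 differences was wide for dim probe sets: the middle of the distribution, from the lower to the upper quartile, ran from -1.19 to 0.74 for probe sets whose level was in the lowest quartile on replicates 2 and 3, against -0.50 to 0.46 in the highest. The labelled cell type was checked against 10 kidney epithelial markers, of which 8 lay above the arrays' upper quartile, including KRT18 (13.71 to 14.01 on replicates 2 and 3) and EPCAM (13.58 to 13.77). Of 24 measured markers of fibroblasts, endothelium, leukocytes, cartilage and bone, 21 lay below that quartile. The exceptions were VIM, FBLN1 and SOX9. Among all 15115 named genes only 4920 lay above it, and the kidney markers CDH1 and PAX2 lay below it. A level below that quartile thus does not show that a cell type was absent. By limma 0 of the 24 passed on the probe set of highest level, although 2 of the 5 FBLN1 probe sets were higher in 3D. An unadjusted limma p under 0.05 was found for 3 of the 24, beside 3800 of all 15115 named genes.

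Collagens are trimers of alpha chains wound into a triple helix, and the type depends on which chains assemble. Type IV forms the sheet-like network of basement membranes, the matrix on which epithelia rest, and is assembled from 6 alternative chains whose genes lie in head-to-head pairs. Types VII, XV and XVIII link or border basement membranes. Fibrillar collagens such as I, II, III, V and XI build the fibrils of connective tissue, and type V, a minor component there, helps to start fibrils and set their width. Matrigel is itself a basement membrane extract, rich in laminin and type IV collagen protein, so that 3D cells met these proteins from outside.

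Of the 2 main chains of type V collagen, COL5A2 read lower in 3D on both probe sets and COL5A1 on 2 of 4. The mean of the 4 COL5A1 probe sets did not pass (limma adjusted p = 0.0653). The calls for both genes were absent in fits with a replicate block or with all 6 arrays, where 0 of all 42924 probe sets passed by limma. By limma 0 of the other 34 collagen genes passed on any probe set. Of the 97 collagen probe sets 4 passed, all lower in 3D and all of these 2 genes, and 10 had an unadjusted p under 0.05. Among all 42924 probe sets 10072 had such a limma p, a larger share, as did 3800 of the 15115 named genes. The 4 lower probe sets are 4.12% of the members, against a background of 2.96% of all probe sets that were lower in 3D and 3.65% that were higher (6.61% in all). Counted by gene, with the probe set of highest mean level standing for each, 2 of 36 passed, or 5.56%, both lower, against 3.12% of all 15115 named genes lower and 4.17% higher (7.28% in all). The collagen shares were near these backgrounds, so the counts alone are not a result about the family.

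COL5A2 encodes the alpha 2 chain, which pairs with alpha 1 chains in the common form of type V. On the brighter of its 2 probe sets the values were 13.39 and 13.38 in 2D and 12.58 and 12.54 in 3D. The other read 12.18 and 12.08 in 2D and 11.13 and 11.50 in 3D. Each 3D array lay below each 2D array on both. The log2 differences were -0.825 (SE 0.0971, limma adjusted p = 0.0132), or 1.77-fold lower in 3D, and -0.815 (SE 0.146, limma adjusted p = 0.0333), or 1.76-fold lower. In replicate 1 the first read 12.18 in 2D and 10.38 in 3D and the second 10.20 and 8.41, differences of -1.80 and -1.79. The 2 probe sets thus gave near-equal differences within each scale. COL5A2 lies next to COL3A1 in the canine gene table, with 0 protein-coding genes between them. The 5 probe sets of COL3A1 differed by -0.175 to 0.01 on replicates 2 and 3 and did not pass. All but the brightest of them (7.06) had levels of 3.82 to 4.63. That is below the arrays' lower quartile, where 0.823% of all probe sets passed in either direction. Whether the 2 genes change together was not tested.

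COL5A1, the alpha 1 chain found in every form of type V trimer, was lower on 2 of its 4 probe sets. The brightest read 9.84 and 9.90 in 2D against 9.15 and 9.23 in 3D, a difference of -0.68 (SE 0.101, limma adjusted p = 0.0207), 1.60-fold lower. Another read 7.75 and 7.61 in 2D against 6.69 and 6.85 in 3D, a difference of -0.91 (SE 0.114, limma adjusted p = 0.0148), 1.88-fold lower. On both the groups did not overlap, and replicate 1 differed in the same direction, from 9.01 to 6.40 and from 7.74 to 4.04. The remaining pair did not pass. One read 6.80 and 6.86 in 2D against 6.82 and 6.97 in 3D, and the other, of the type whose identifier probes that may bind other transcripts, read 7.73 and 7.83 against 7.85 and 7.82. Their differences were 0.065 (95% interval -0.20 to 0.33) and 0.055 (95% interval -0.19 to 0.30), and 0.02 and 0.11 in replicate 1. The probe sets of COL5A1 thus disagreed in the same way on both scales, and the mean of the 4 did not pass (-0.3675, SE 0.0906, limma adjusted p = 0.0653), while the mean for COL5A2 did (-0.82, limma adjusted p = 0.0126). Where along the transcript each probe set lies was not analysed here. The 3′ minus 5′ difference of the actin control on replicates 2 and 3 was 1.305 and 1.48 (2D) and 1.185 and 1.275 (3D). That of the GAPDH control was 0.20 and 0.16 in 2D and 0.31 and 0.40 in 3D. In replicate 1 these were larger, 2.195 (2D) and 2.875 (3D) for actin and 1.67 (2D) and 1.47 (3D) for GAPDH. Their part in the COL5A1 result was not tested.

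COL5A3, a further chain of type V with a narrower tissue range, has 1 probe set. It read 6.08 and 6.05 in 2D and 5.78 and 5.74 in 3D, without overlap, and its difference of -0.305 (SE 0.0974, limma adjusted p = 0.127) did not pass. Replicate 1 went the other way, from 4.63 in 2D to 5.29 in 3D.

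**Figure D1:**
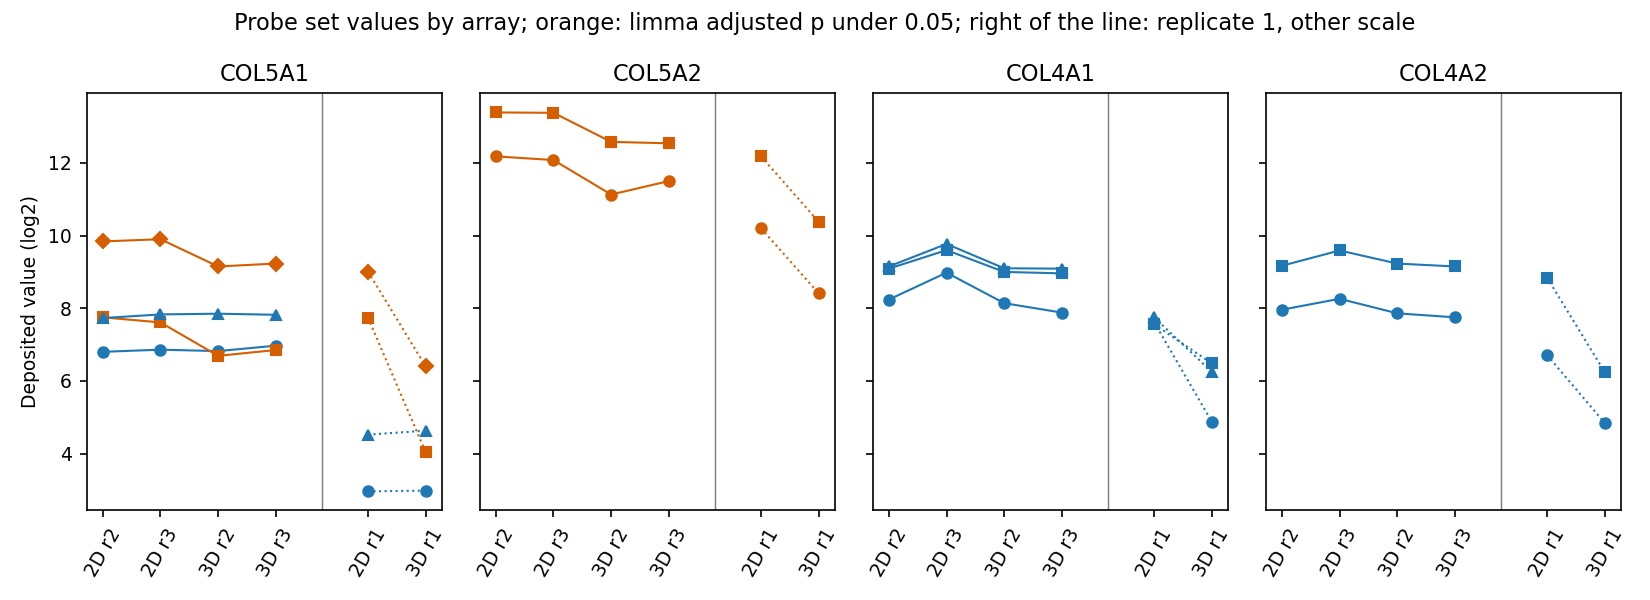
Deposited log2 value of each probe set of COL5A1, COL5A2, COL4A1 and COL4A2 (1 line and marker per probe set) on each array, with replicates 2 and 3 left of the vertical line and replicate 1, on another scale, right of it. Orange marks the 4 probe sets with a limma adjusted p under 0.05; 2 probe sets of COL5A1 stay level in 3D, and the 5 of COL4A1 and COL4A2 have their highest value among the left arrays on 2D replicate 3.

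Leaving out any 1 of the 4 arrays ended the calls of these 4 probe sets, with 0 of all 42924 probe sets passing and 4683 to 10892 at an unadjusted p under 0.05, as did the replicate block on these arrays (0 passing, 8325 at an unadjusted p under 0.05). The differences themselves ranged from -0.63 to -1.0 over the 4 omissions.

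Type IV chains, the basement membrane network, held 15 probe sets of 6 genes, and by limma 0 passed, with 1 at an unadjusted p under 0.05. Of all 42924 probe sets 6.61% passed and 10072 had such a p, so 0 of 15 passing is no result about type IV. The ubiquitous chains COL4A1 and COL4A2, which assemble together and whose genes are direct neighbours, read lower in 3D on all 5 of their probe sets without passing. The brightest COL4A1 probe set read 9.15 and 9.77 in 2D against 9.10 and 9.09 in 3D, and the next read 9.09 and 9.60 against 9.0 and 8.96. The dimmest read 8.24 and 8.98 against 8.14 and 7.88. On each of them 2D replicate 3 stood above the other 3 arrays, and 2D replicate 2 lay closer to both 3D arrays than to 2D replicate 3. The differences were -0.365 (SE 0.202, 95% interval -0.86 to 0.13, limma adjusted p = 0.351), -0.365 (SE 0.176, limma adjusted p = 0.283) and -0.60 (SE 0.245, limma adjusted p = 0.212).

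On both COL4A2 probe sets, too, 2D replicate 3 was the highest of the 4 arrays. The brighter probe set read 9.17 and 9.59 in 2D against 9.23 and 9.15 in 3D, where the groups overlapped, and the other read 7.96 and 8.26 against 7.86 and 7.75. Their differences were -0.19 (SE 0.156, 95% interval -0.57 to 0.19, limma adjusted p = 0.543) and -0.305 (SE 0.133, limma adjusted p = 0.239). Without 2D replicate 3 the 5 differences of COL4A1 and COL4A2 shrank to between -0.23 and 0.02, and without 2D replicate 2 they lay between -0.40 and -0.97. Replicate 1 had lower values in 3D on all 5, with differences of -1.50, -1.08 and -2.74 for COL4A1 and -2.60 and -1.87 for COL4A2, in the same order. At least a 2-fold lower value in replicate 1 was seen for 19.7% of all probe sets, and for 9.21% of those in the highest quartile of levels, where 3 of these 5 lie.

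The tissue-restricted chains COL4A3 to COL4A6, which build the specialized basement membranes of glomerulus and tubule, differed by -0.15 to 0.15 on their 10 probe sets. COL4A3 read 6.01 and 5.99 in 2D and 5.80 and 6.20 in 3D on its higher probe set, a difference of 0 (95% interval -0.37 to 0.37). COL4A4 read 7.79 and 7.82 against 7.71 and 7.89, a difference of -0.005 (95% interval -0.27 to 0.26). COL4A5 read 5.13 and 5.32 against 4.97 and 5.34, and COL4A6 read 6.37 and 6.37 against 6.61 and 6.43. The COL4A6 arrays did not overlap and its difference was 0.15 (SE 0.109, limma adjusted p = 0.485), opposite to replicate 1 (-1.07). In replicate 1 the 10 probe sets spanned -1.23 to 2.42. Of the 10, 5 lay below the arrays' lower quartile, where 0.823% of all probe sets passed in either direction.

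Among the other basement membrane collagens, COL15A1, a proteoglycan-like collagen, differed by -0.17 to 0.12 on 4 probe sets. Its highest probe set read 7.81 and 7.71 in 2D and 7.66 and 7.63 in 3D (-0.115, SE 0.101, limma adjusted p = 0.574). COL7A1, which forms the anchoring fibrils of skin, read 6.08 and 6.21 against 6.28 and 6.20 on the higher of its 2 probe sets (0.095, SE 0.106, limma adjusted p = 0.671). In replicate 1 these probe sets differed by -0.78 and 1.96. COL18A1, the precursor of endostatin, was not analysed here.

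The 8 fibrillar genes other than COL5A1 and COL5A2, of types I, II, III, XI, XXIV and XXVII and COL5A3, gave 0 passing probe sets of 23 by limma, with 1, that of COL5A3, at an unadjusted p under 0.05. Beside these stand 6.61% of all 42924 probe sets passing and 10072 at such a p. COL1A1 and COL1A2, the chains of type I, the main collagen of bone and skin, differed by -0.195 to 0.07 on 7 probe sets. COL1A1 read 7.03 and 7.25 in 2D and 7.12 and 6.93 in 3D on its highest probe set (-0.115, 95% interval -0.43 to 0.20), and COL1A2 read 5.04 and 5.06 against 4.93 and 4.88 (-0.145, 95% interval -0.38 to 0.09). COL3A1, the chain of type III found in stretchable tissues, read 7.01 and 7.10 against 7.03 and 7.10 (0.01, 95% interval -0.24 to 0.26). In replicate 1 these 3 highest probe sets differed by 0.17, -0.55 and 0.83. The other probe sets, all below the lower quartile, gave -2.25 and -3.0 for COL1A1 in replicate 1. For COL1A2 they gave -0.90 to -0.59 and for COL3A1 -0.14 to 2.34. COL11A2, a chain of the cartilage collagen XI, had the highest difference of the fibrillar genes, 0.215 (SE 0.0984, limma adjusted p = 0.260), from 7.87 and 7.87 in 2D to 8.12 and 8.05 in 3D, and replicate 1 differed by 1.08. Its other probe set differed by -0.045 and, in replicate 1, by -3.72.

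**Figure D2:**
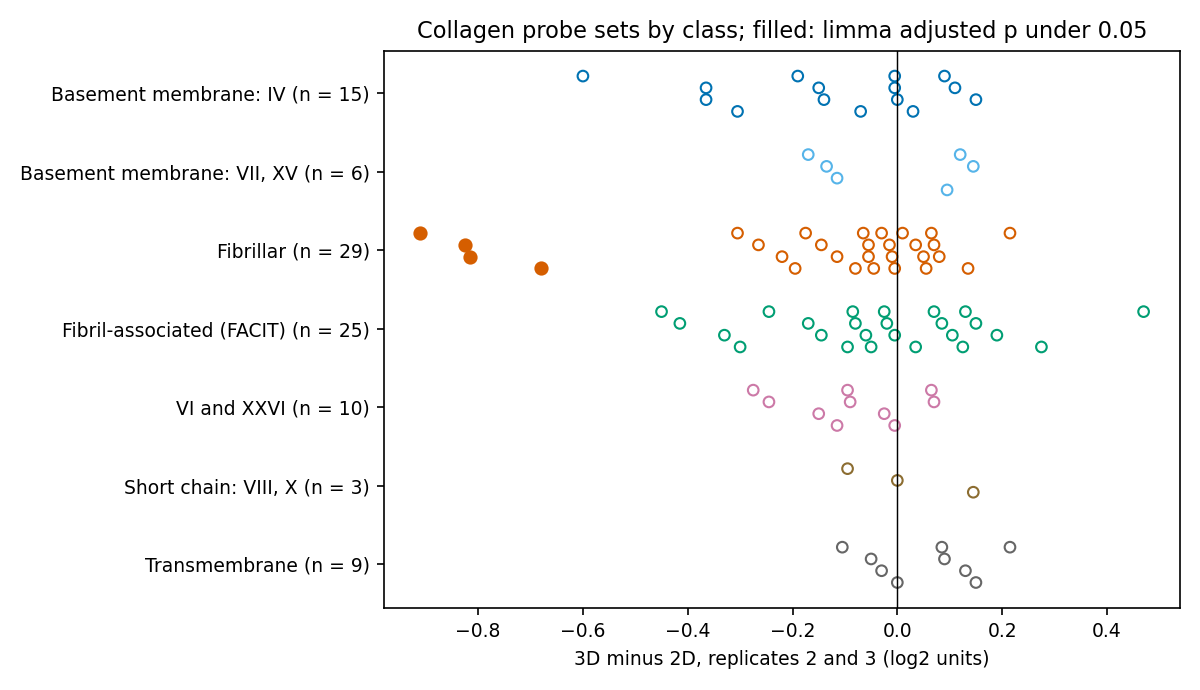
Difference between 3D and 2D on replicates 2 and 3 (log2 units, horizontal axis) for each of the 97 collagen probe sets, by structural class; filled points have a limma adjusted p under 0.05. The 4 filled points, at -0.68 to -0.91, are fibrillar and belong to COL5A1 and COL5A2, while the 15 type IV probe sets range from -0.60 to 0.15.

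On replicates 2 and 3 the order of the basement membrane and fibrillar classes depended on how genes with several probe sets were counted. In replicate 1 the basement membrane chains had the lower median under both counts, so by gene the order differed between the scales. Over all probe sets the median difference on replicates 2 and 3 was -0.07 for the 21 of basement membrane chains and -0.055 for the 29 of fibrillar chains, beside -0.005 over all probe sets of the arrays. In replicate 1 these medians were -0.73 and -0.55, beside -0.14. Below 0 in replicate 1 were 16 of 21 and 19 of 29, beside 24005 of all 42924 probe sets. With the highest probe set standing for each gene, the median on replicates 2 and 3 was -0.0375 over the 8 basement membrane genes and -0.13 over the 10 fibrillar genes, beside -0.01 over all named genes. In replicate 1 it was then -0.55 for basement membrane genes and 0.04 for fibrillar genes, beside -0.11 over all named genes. The difference between the classes was not tested. Without COL5A1 and COL5A2, a selection made after their values were seen, the other 8 fibrillar genes had a median of -0.085 and 0.155 on the respective scales. Passing members were 2 of 10 fibrillar genes and 0 of 8 basement membrane genes by limma (0 of these 8 at an unadjusted p under 0.05), beside 7.28% of all named genes, a share at which 0 of 8 is no result about the class. All 6 type IV genes were lower in 3D in replicate 1 by their highest probe set, beside 8276 of all 15115 named genes. COL4A3, COL4A4 and COL4A5 differed there by only -0.11, -0.32 and -0.32. On their other probe sets COL4A3 and COL4A6 gave 2.42 and 1.14 in replicate 1, where 13 of the 15 type IV probe sets were below 0. On replicates 2 and 3, 4 of the 6 type IV genes had a difference below 0, beside 7768 of all 15115 named genes. Of these 4, COL4A4 and COL4A5 differed by -0.005 and -0.07.

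**Figure D3:**
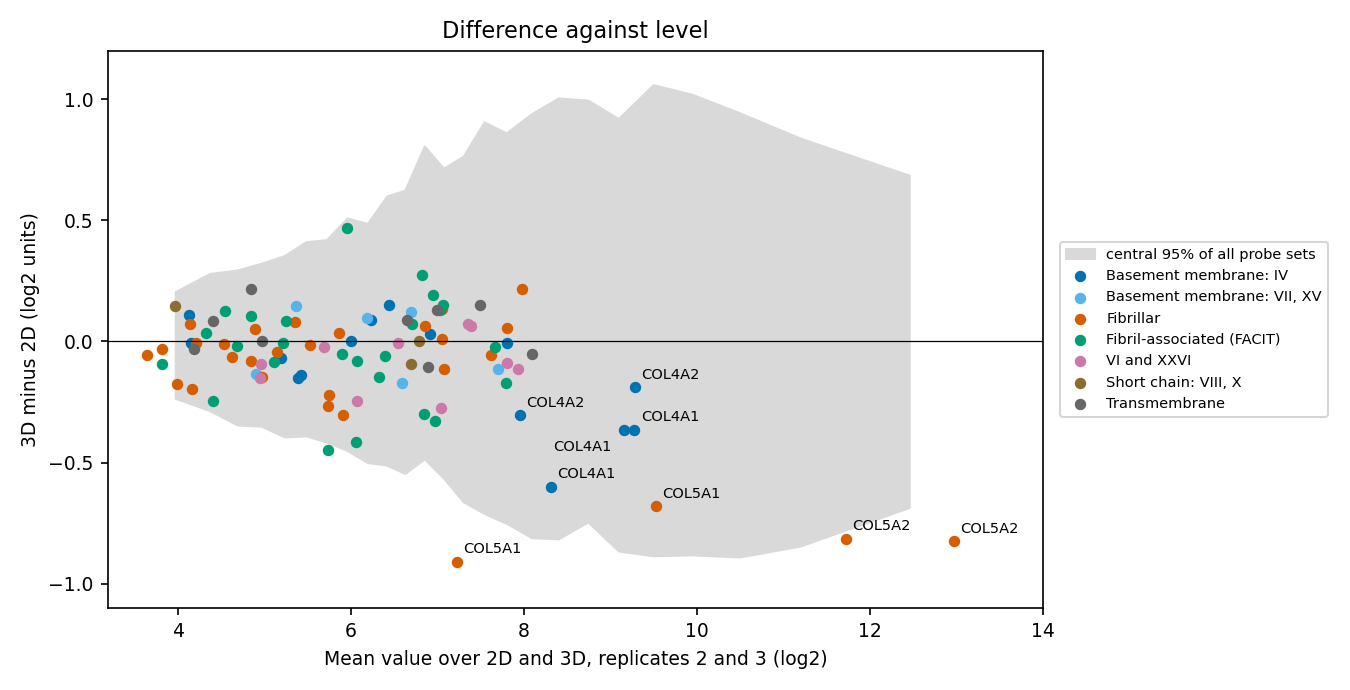
Difference between 3D and 2D (log2 units) against the mean level over the 4 arrays of replicates 2 and 3 (log2) for the 97 collagen probe sets; the grey band holds the central 95% of all probe sets in 25 bins of level. Of the 97, 74 lie left of the arrays' medians of 7.06 to 7.08, and the 6 in the highest quartile of levels all have a difference below 0.

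Most collagen probe sets were dim. Of the 97, 74 lay below the arrays' median level and 37 below their lower quartile, and 0.823% of all probe sets below that quartile passed. The table carries no detection calls, and a signal also depends on the probes, so levels of different genes were not ranked. The probe sets above the upper quartile were 6, namely 2 of COL4A1, 1 of COL4A2, 1 of COL5A1 and 2 of COL5A2. All 6 were lower in 3D on replicates 2 and 3, 3 of them past the threshold, against 6.76% of all probe sets in that quartile called lower. All 6 were also at least 2-fold lower in replicate 1, against 9.21% of that quartile. This quartile was looked at after the values had been seen, and the 6 probe sets stand for 4 genes.

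Fibril-associated collagens, which sit on the surface of fibrils, had 25 probe sets of 8 genes and 0 passing by limma, with 4 at an unadjusted p under 0.05. Beside these stand 6.61% of all 42924 probe sets passing and 10072 at such a p. COL12A1 came nearest, on the highest of its 4 probe sets, which read 5.91 and 6.01 in 2D and 5.56 and 5.46 in 3D. That difference of -0.45 (SE 0.105, limma adjusted p = 0.0622) did not pass, and replicate 1 gave -1.50. The other 3 COL12A1 probe sets, all below the lower quartile, differed by -0.245 to 0.105. COL22A1, a collagen of tissue junctions, read 7.19 and 7.09 against 6.80 and 6.82 on its highest probe set. That difference was -0.33 (SE 0.101, limma adjusted p = 0.114), with -1.62 in replicate 1. Its other probe sets disagreed, with differences of 0.19, where both 3D arrays lay above both 2D arrays, and -0.05. COL14A1 had 8 probe sets that ranged from -0.415 to 0.47, so that a single value for this gene would depend on the probe set taken. COL19A1 had the highest difference of this class by gene, 0.275 (SE 0.133, limma adjusted p = 0.286), with -1.09 in replicate 1. Its other probe set differed by -0.145. COL20A1 read 7.82 and 7.93 in 2D and 7.52 and 7.89 in 3D on its highest probe set, and its other probe sets differed by 0.07 and 0.13.

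The remaining classes had 0 passing probe sets by limma, beside 6.61% of all 42924 probe sets, and 0 at an unadjusted p under 0.05, beside 10072 of all. COL6A1 and COL6A3, chains of the beaded microfibrils of type VI, differed by -0.275 to 0.07 on 5 probe sets. The lowest of these, for COL6A3, read 7.19 and 7.18 against 6.78 and 7.04 (SE 0.122, limma adjusted p = 0.247). COL26A1 read 7.96 and 8.02 in 2D and 7.88 and 7.87 in 3D. COL17A1, the transmembrane collagen of hemidesmosomes, which hold epithelial cells to the basement membrane, read 8.13 and 8.12 against 8.06 and 8.09 on its higher probe set (-0.05, 95% interval -0.29 to 0.19). Replicate 1 gave -1.39 there, and 2.54 on the other COL17A1 probe set, which lay below the lower quartile. COL25A1, a membrane collagen of neurons, had the highest difference of the transmembrane genes, 0.15 (SE 0.105, limma adjusted p = 0.465), and COL23A1 the lowest, -0.105 (SE 0.103, limma adjusted p = 0.621). The short-chain collagens COL8A2 and COL10A1 differed by -0.095 to 0.145 on 3 probe sets.

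**Figure D4:**
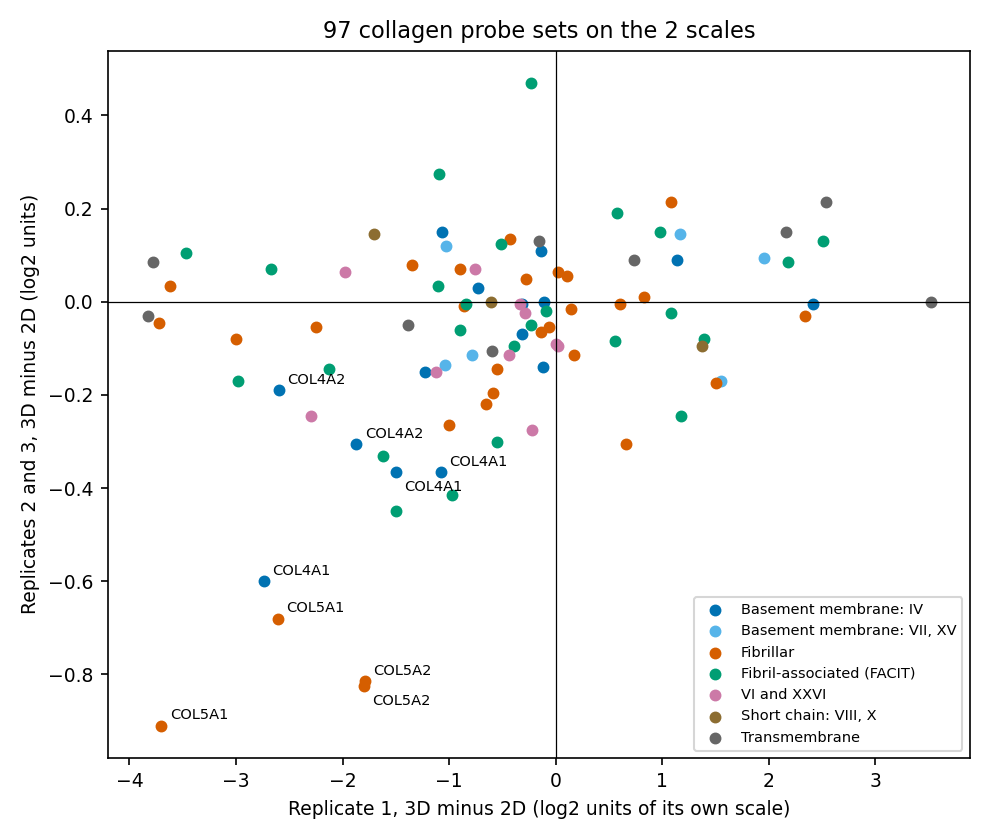
Difference between 3D and 2D in replicate 1 (log2 units of its own scale, horizontal) against the difference on replicates 2 and 3 (log2 units, vertical) for the 97 collagen probe sets, coloured by class. The probe sets of COL5A1, COL5A2, COL4A1 and COL4A2 with differences below -0.1 on the vertical axis lie at the lower left, and most others are spread along the horizontal axis from -3.83 to 3.52 at vertical values between -0.45 and 0.47.

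Across both scales, 59 of the 97 probe sets had the same sign (60.8%, against 54.4% of all probe sets). Both 3D arrays lay below both 2D arrays of replicates 2 and 3 for 34 probe sets (35.1%, against 26.7% of all probe sets), and above them for 15 (15.5%, against 25.1%). In replicate 1, 34 probe sets were at least 2-fold lower in 3D (35.1%, against 19.7% of all) and 17 at least 2-fold higher (17.5%, against 14.3%). Both criteria for lower values were met by 17 probe sets (17.5%, against 5.98% of all). They included the 4 of type V that passed, the 3 of COL4A1 and 1 of COL4A2, while on others of the 17, such as 2 of COL1A1 (-0.055 and -0.08) and 1 of COL17A1 (-0.05), the difference on replicates 2 and 3 was small. Probe sets of 1 gene share their transcript, so these counts are not over independent members. The shares of all probe sets are also not matched for level. Of the 97, 37 lay in the lowest quartile of levels. There, 3178 of all 10697 probe sets were at least 2-fold lower in replicate 1, against 9.21% in the highest quartile. The part of level in these counts was not tested.

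Among genes that handle collagen a few passed, counted by the probe set of highest level. The counts stand beside 7.28% of all named genes that passed in either direction, and 13.9% of those in the highest quartile of levels, and nothing particular to a list is read from them. Collagen chains are hydroxylated in the endoplasmic reticulum before they fold, and 2 of 18 measured modification and folding genes passed, both lower in 3D, and 11 of the 18 lay in the highest quartile. P3H2, a prolyl 3-hydroxylase, read 9.77 and 9.78 in 2D and 9.17 and 8.90 in 3D, 1.67-fold lower (limma adjusted p = 0.0282). P4HA2, a subunit of prolyl 4-hydroxylase, read 12.14 and 12.08 against 11.62 and 11.36, 1.54-fold lower (limma adjusted p = 0.0426), and 4 of its 6 probe sets passed. In replicate 1 they differed by -1.39 and -1.35. SERPINH1, the collagen chaperone of the endoplasmic reticulum, did not pass (0.13, limma adjusted p = 0.606). Of 17 secretion and processing genes 0 passed by limma on that probe set, with 2 at an unadjusted p under 0.05. MIA3, which helps load collagen for export, was lower on 1 of its 7 probe sets while its highest differed by 0.37 (limma adjusted p = 0.105). Of 5 crosslinking genes 1 passed, LOX, the lysyl oxidase that crosslinks fibrils, which read 9.74 and 9.23 in 2D and 7.48 and 7.12 in 3D, 4.55-fold lower (limma adjusted p = 0.00861), with -4.86 in replicate 1.

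The counts that follow also stand beside 7.28% of all named genes, and 13.9% of those in the highest quartile of levels. Of 10 collagen receptor genes 1 passed and was higher. It was DDR1, a receptor tyrosine kinase that binds collagens, which read 9.96 and 9.89 in 2D and 10.94 and 10.68 in 3D, 1.85-fold higher (limma adjusted p = 0.0180) on 1 of 3 probe sets, and differed by -0.02 in replicate 1. Among 11 degradation genes TIMP3, a metalloproteinase inhibitor, was lower by a difference of -2.07 (SE 0.208, limma adjusted p = 0.0102) on the probe set taken and passed on all 4, and the protease gene CTSB (1.56-fold, on 1 of 2 probe sets) and the inhibitor gene TIMP2 (1.62-fold, on its 1 probe set) were higher. In replicate 1 CTSB differed by 0.39 and TIMP2 by -0.14. Of 19 other basement membrane genes, NPNT, an integrin ligand of the kidney basement membrane, was 2.02-fold lower (limma adjusted p = 0.0126; -0.07 in replicate 1), and LAMC1, a laminin chain, and DAG1, a laminin receptor, were 1.91-fold and 1.64-fold higher, on 2 of 3 and 1 of 4 probe sets. LAMC1 and DAG1 were lower in replicate 1, by differences of -1.41 and -1.28. Poly-A spike-in controls averaged 9.66 on 3D replicate 2 and 8.64 to 8.82 on the other 3 arrays of this scale, and 7.52 in 2D and 8.20 in 3D in replicate 1; their part in these results was not tested.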

How the data were processed

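Values are on the log2 scale as deposited, from 6 Affymetrix canine arrays of 1 colour. Per the submitters' processing notes RMA (background correction, quantile normalization and probe summary) and limma were used; the sources used here give no versions and do not say how the replicate 1 columns were made. No genome build is named and no sequences were used.

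Of 43035 probe sets 111 controls were left out. The platform annotation gave 29254 probe sets 1 symbol, 439 several and 13231 none. Entrez identifiers of 92 of the 97 collagen probe sets were matched to RefSeq's dog genes (UU_Cfam_GSD_1.0), and 0 symbols differed. There was no filter on level. Array number, not depth, limits precision.

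Replicates 2 and 3 were fitted with lmFit and eBayes (limma 3.58.1, R 4.3.3). Tests were two-sided, p-values were adjusted by Benjamini and Hochberg over 42924 probe sets, and the fit was tested on simulated data. Intervals are 95% and unadjusted. A gene is represented by its probe set of highest mean over replicates 2 and 3. Named were genes with a passing probe set, the chains of types I, III, IV, V, XV, XVII and XVIII, the extremes of each class, and up to 3 passing genes per related list. COL14A1, COL22A1, SERPINH1 and some cell type markers were named outside this rule. Members and lists were chosen with earlier results of these data known. Same-numbered samples of replicates 2 and 3 did not deviate together (correlation 0.00127). Over all 6 arrays the correlations of same-numbered samples were 0.497 to 0.545, with replicate 1 on its own scale. Python 3.11.15, pandas 2.3.3, numpy 2.4.6 and matplotlib 3.10.9 were used for tables and plots.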

Additional observations from a re-analysis of the deposited data

How the results depend on the processing

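The 4 passing collagen probe sets and 2 passing genes were also 4 and 2 with median centring, with trend and robust priors and without the 25% dimmest probe sets. In the same fits 2713 and 2433 of all 42924 probe sets and 3004 of the 32177 kept passed, beside 2837 in the main fit. Both counts were 0 when limma was fitted to all 6 arrays or with the replicate block on replicates 2 and 3. In these fits 0 of all 42924 probe sets passed, so the loss of calls is not particular to collagens. At an unadjusted limma p under 0.05 were 0 collagen probe sets and 105 of all with 6 arrays and no block, and 5 and 2723 with the replicate block. These counts were 6 and 3517 quantile normalized with the block, and 9 and 8325 with the block on replicates 2 and 3. Fits without 1 array are given with the type V chains above. In those fits a group of 1 is assumed to vary like the other. Averaging the probe sets of each gene left 1 collagen gene passing, beside 1153 of all 15115 genes. None of the 4 differences changed direction in these settings. Leaving out an array could not change it, because each 3D array lay below each 2D array on all 4. Replicate 1 was lower too, so the direction is no sign of stability. The median difference of basement membrane chains (-0.0375) was -0.205 with all 6 arrays, with or without the replicate block, -0.0983 quantile normalized with the block, -0.005 without dim probe sets, and -0.125 to 0.0575 without 1 array. The median difference of fibrillar chains (-0.13) was -0.0383 and -0.00486 in the same fits of 6 arrays, -0.0767 after averaging the probe sets of a gene, and -0.18 to -0.10 without 1 array. The median difference of all collagen genes (-0.075) was -0.192 with all 6 arrays, -0.09 with median centring, -0.0498 after averaging, and -0.105 to -0.01 without 1 array. The replicate block on replicates 2 and 3 moved no median. Dim signal limits what most of the other members can show. COL4A1 and COL4A2 were not dim, but their 2D arrays differed from each other.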

Other observations

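A probe set annotated to both COL25A1 and ETNPPL was outside the members. It read 4.54 and 4.33 in 2D and 4.47 and 4.50 in 3D (0.05, limma adjusted p = 0.856), with -1.08 in replicate 1. Of the chain genes listed by class, 9 were not analysed here, namely COL6A2, COL6A4, COL6A5, COL8A1, COL9A2, COL9A3, COL11A1, COL18A1 and COL28A1.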
